A study of Homo sapiens with 10 samples.

Results

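Neurotensin is a short gut and brain peptide, and the 8 genes described here encode its precursor, its receptors and proteins that process or store peptide hormones. They are NTS, NTSR1, SORT1, PCSK1, PCSK2, CPE, SCG5 and CHGA, 8 of the 60554 genes in the tables. The genes were chosen by symbol with their measured levels in these libraries already known, so their differences from the control guide are given as a description, without p-values or intervals from the fit. Whether they were called is stated beside the share of all genes called, and again under the alternative settings, and nothing is read from it. Of the 8 genes, 4 (NTS, SORT1, PCSK2 and CPE) passed the filter on low values and were among the 11640 genes tested. The filter keeps protein-coding genes that exceed 3 RPM (estimated counts per 1000000 of the library) in at least 20% of the libraries. NTS passed only through the libraries in which it was high, so that it had to differ between groups to be tested.

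The libraries came from Caco-2, a line of human colon cancer cells that resemble enterocytes in culture. All groups derived from a monoclonal, puromycin-selected clone carrying dCas9-KRAB, a Cas9 that binds DNA without cutting it, joined to a repressor domain. This clone then received, by lentivirus with a hygromycin gene, an empty guide plasmid (gCtl, 5 libraries) or a guide RNA against the long noncoding RNA LHFPL3-AS2, either g1 (3 libraries) or g2 (2 libraries). The study compared both guides with gCtl to ask what depletion of LHFPL3-AS2 does to epithelial cells, and the 5 libraries with a guide are called the libraries labelled knockdown here. All groups therefore share the clone, the repressor and both selections, and a single clone limits how far the values stand for Caco-2 cells at large. The labels do not say whether libraries of a group came from separate cultures, so p-values measure only the spread between these libraries. They give no replicate numbers either, and the numbers used here only follow the order of the samples within each group.

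Peptide hormones are made as long precursors that enter the secretory pathway and are cut at pairs of basic residues by the prohormone convertases PCSK1 and PCSK2. Carboxypeptidase E, encoded by CPE, then trims the basic residues left at the cut ends, and the products are stored in dense core granules together with granins such as chromogranin A. In the intestine neurotensin is released by enteroendocrine N cells after fat is eaten, and it acts through the G protein-coupled receptor NTSR1, while the sorting receptor sortilin, encoded by SORT1, also binds it.

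Library totals lay between 3838803 and 8730468 estimated counts, so that 1 count was worth 0.115 to 0.260 RPM. LHFPL3-AS2 itself held few estimated counts, at 6.65, 4.39, 20.7, 6.92 and 17.7 in the gCtl libraries, 17.7, 18.4 and 17.7 in g1, and 13.2 and 44.0 in g2. No decrease with the guides was detected (edgeR's quasi-likelihood test, log2 fold change 0.61, SE 0.42, adjusted p = 0.381), so the directions given here rest on the labels. The study also measured this RNA by qPCR, which was not analysed here. Of 8 epithelial markers 7 passed the filter, among them EPCAM, CDH1 and VIL1, and CDX1 was near 0. Of 8 markers of immune, stromal and endothelial cells 2 passed, and their summed level was 6.08 to 13.9 RPM in gCtl, 13.9 to 22.2 RPM in g1 and 7.46 to 12.5 RPM in g2. The 10 most abundant genes took 26.4% to 32.1% of the counts in gCtl, 26.8% to 36.9% in g1 and 38.0% to 42.7% in g2, and mitochondrial transcripts took 18.3% to 23.97%, 19.0% to 20.6% and 12.0% to 16.8%. The part of these shares in the results was not tested. Of all genes called with the guides 57.5% were lower than in gCtl, and 69.4% were lower when library totals replaced the TMM scaling. For g2 against gCtl these shares were 54.9% and 73.3%, and for g2 against g1 68.7% and 83.4%.

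The NTS gene lies at chr12:85874295-85882992 on the plus strand of GRCh38. The 250 bases before its start are shown because NTS was the gene with the largest difference among the 8, and because this stretch holds a near-match to the cyclic AMP response element. The sequence is RefSeq's (GRCh38.p14, chr12:85874045-85874294, plus strand), written 5′ to 3′, and the capitals mark TGACATCA and overlapping copies of TATATA.
NTS: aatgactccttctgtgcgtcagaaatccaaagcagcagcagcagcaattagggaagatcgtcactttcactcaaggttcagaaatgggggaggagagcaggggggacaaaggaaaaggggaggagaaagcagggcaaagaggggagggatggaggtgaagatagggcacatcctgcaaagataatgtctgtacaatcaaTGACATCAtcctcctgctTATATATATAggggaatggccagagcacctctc

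The exact cyclic AMP response element, TGACGTCA, was found in the same window of CHGA and before 1 of the 2 starts that RefSeq lists for PCSK1. GENCODE v29 places the start of CHGA-001 at position 92923080, before the CHGA match. The 30 bases around the matches are shown to set the 3 genes side by side, with the match in capitals, from chr12:85874233-85874262 (plus strand), chr14:92923085-92923114 (plus strand) and chr5:96433307-96433336 (minus strand).
NTS: tgtacaatcaaTGACATCAtcctcctgctt
CHGA: ggcggcaccgcTGACGTCAtttccggggtc
PCSK1: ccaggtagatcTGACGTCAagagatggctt

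The search covered both strands of the 250 bases before the start for all 8 genes. TGACGTCA was present in 1.65% of 35116 promoters, TGACATCA in 2.37%, TATATA in 3.73%, TATAAA in 10.7% and the AP-1 motif TGACTCA in 4.20%. TGACATCA ended 44 bases before the NTS start and TGACGTCA 47 bases before the CHGA start. None of the 5 motifs was found for CPE, SORT1, PCSK2, SCG5 or NTSR1. TGACATCA, as found in NTS, was the only near-match searched for, so near-matches with other letters were not counted. TCACGTCA, for example, stands before a start of PCSK2. A match is a description of the letters, not of binding.

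NTS, which encodes the common precursor of neurotensin and neuromedin N, was nearly absent with the empty guide and present with both guides. The 5 gCtl libraries held 1, 0, 3, 0 and 1 estimated counts. The 3 g1 libraries held 37, 54 and 34 counts, and the 2 g2 libraries held 46 and 47. Every library with a guide was therefore above every gCtl library, and the lowest of them held 34 counts against at most 3. In RPM the level was 0.196 ± 0.224 (SD, n = 5) in gCtl, 7.31 ± 3.93 (SD, n = 3) in g1 and 6.96 ± 0.769 (SD, n = 2) in g2.

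Because the gCtl libraries held at most 3 counts each, the difference is given as a ratio of pooled RPM with its 95% exact counting interval. The 218 counts of the libraries labelled knockdown against 5 of gCtl gave a ratio of 32.5 (13.7 to 101). For g1 alone the ratio was 31.7 (13.2 to 99.4), and for g2 alone it was 33.6 (13.9 to 106). These intervals, and the counting intervals given for other genes below, cover counting error only and not the spread between libraries. Of the 5 gCtl counts 3 came from gCtl replicate 3, and without that library the ratio for all libraries labelled knockdown was 62.7. In bulk libraries, more cells with the RNA and more RNA per cell cannot be told apart.

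**Figure D1:**
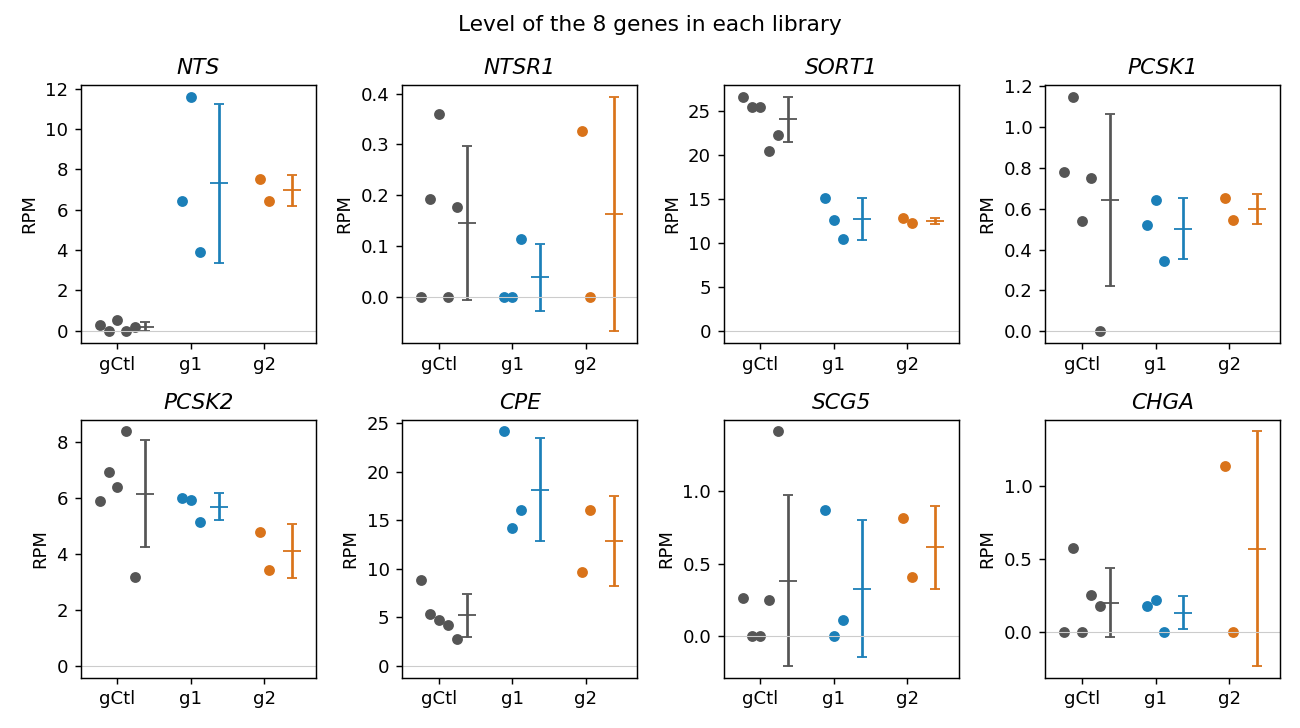
Level of each of the 8 genes in RPM (vertical axes, scaled to each gene) in every library of gCtl, g1 and g2, with points for libraries and the mean ± SD beside them. NTS stood at 3.89 to 11.6 RPM with a guide and at most 0.541 RPM in gCtl, CPE was higher and SORT1 lower in every library with a guide, and the other 5 genes overlapped between gCtl and the libraries labelled knockdown.

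The level of NTS did not differ detectably between the guides. The log2 fold change of g2 against g1 was 0.08 (SE 0.49, 95% interval -0.96 to 1.12, adjusted p = 0.945, edgeR's quasi-likelihood test). Within g1 the libraries ranged from 3.89 to 11.6 RPM, and both g2 libraries lay inside that range.

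The receptor NTSR1, which couples neurotensin to calcium release, was at the limit of detection. It had 0, 1, 2, 0 and 1 counts in gCtl, 0, 0 and 1 in g1, and 2 and 0 in g2. The 3 counts in the libraries labelled knockdown against 4 in gCtl gave a ratio of 0.559 (95% counting interval 0.0818 to 3.30), and no difference was detectable at this depth. All 7 counts were assigned to a noncoding transcript of the gene that shares its last base with the coding transcript.

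SORT1, which sorts cargo between the Golgi and endosomes and binds neurotensin outside the cell, was lower with both guides. Its level was 26.6, 25.4, 25.5, 20.4 and 22.3 RPM in the gCtl libraries. It was 15.2, 12.6 and 10.4 RPM in the g1 libraries and 12.8 and 12.3 RPM in the g2 libraries. No library with a guide reached the lowest gCtl library. The log2 fold change was -0.89 for g1, -0.78 for g2 and -0.84 for both together. Between the guides it was 0.10 (SE 0.22, 95% interval -0.37 to 0.58, adjusted p = 0.836, edgeR's quasi-likelihood test).

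PCSK1, the convertase of the early secretory granule, was measured by few counts in every library. It had 3, 6, 3, 3 and 0 counts in gCtl, 3, 3 and 3 in g1, and 4 and 4 in g2. The ratio of pooled RPM was 0.844 (95% counting interval 0.397 to 1.82) for the libraries labelled knockdown against gCtl. AC104123.1 overlaps PCSK1 on the opposite strand, and whether the counting used strand is not given in the sources used here, so these counts are uncertain.

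PCSK2, the convertase of the mature granule, overlapped between gCtl and the libraries labelled knockdown. Its level was 5.88, 6.94, 6.41, 8.39 and 3.20 RPM in gCtl, 6.01, 5.94 and 5.13 RPM in g1, and 4.79 and 3.42 RPM in g2. Both g2 libraries lay below the 3 g1 libraries, and gCtl replicate 5 lay below all of them. The share of all tested genes that separate the guides this way was not computed, so nothing is read from it. The log2 fold change was -0.06 for g1 and -0.44 for g2. Between the guides it was -0.38 (SE 0.39, 95% interval -1.21 to 0.44, adjusted p = 0.619, edgeR's quasi-likelihood test), which does not show that the guides were alike.

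The PCSK2 values say little about the convertase itself. Of the gene's estimated counts 98.4% were assigned to a noncoding processed transcript (PCSK2-004, chr20:17463433-17482287, plus strand, 2 exons) that ends 2291 bases before the coding transcripts. The coding transcripts held 3 counts in gCtl, 1 in g1 and 1 in g2.

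CPE was higher with both guides. Its level was 8.86, 5.37, 4.69, 4.25 and 2.82 RPM in gCtl. It was 24.2, 14.2 and 16.0 RPM in g1, and 9.62 and 16.1 RPM in g2. The lowest library with a guide, g2 replicate 1, lay close above the highest gCtl library, replicate 1, and the other 4 were well separated. The log2 fold change was 1.87 for g1, 1.49 for g2 and 1.73 for both together. Between the guides it was -0.38 (SE 0.35, 95% interval -1.13 to 0.37, adjusted p = 0.584, edgeR's quasi-likelihood test).

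SCG5 encodes 7B2, the chaperone that PCSK2 needs to mature. It had 1, 0, 0, 1 and 8 counts in gCtl, 5, 0 and 1 in g1, and 5 and 3 in g2. The highest value thus stood in a gCtl library, and the ratio of pooled RPM was 1.04 (95% counting interval 0.431 to 2.62). Of its 24 counts 91.7% were assigned to retained-intron transcripts. One of these, SCG5-008, held 14 counts and ends 2 bases before the farthest coding end. Reads at that end cannot be told from coding ones by position.

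CHGA encodes chromogranin A, a granule protein widely used as an enteroendocrine marker. It had 0, 3, 0, 1 and 1 counts in gCtl, 1, 1 and 0 in g1, and 7 and 0 in g2. The ratio was 1.34 (95% counting interval 0.404 to 5.09), and no difference was detectable at this depth. Of the 9 counts with a guide, 7 came from g2 replicate 1, and the interval leaves out such spread between libraries.

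Calls required an adjusted p no larger than 0.05 together with a change of 1.5-fold or more. Of the 4 genes past the filter, NTS and CPE were called higher and SORT1 lower in the libraries labelled knockdown, where 8.14% of the 11640 tested genes were called higher and 11.0% lower. The same 3 genes were called for g1 (background 6.81% higher and 9.91% lower) and for g2 (10.7% higher and 13.0% lower). NTS and CPE lay above gCtl in all 5 libraries and SORT1 below, which held for 7.13% and 8.33% of tested genes. The genes were selected on this contrast, so nothing is read from these counts. Without g2 replicate 2, g2 against gCtl called NTS alone. Between the guides 0 of the 4 genes were called by edgeR, DESeq2 or limma, against an edgeR background of 1.55% called higher and 3.42% lower. An unadjusted p under 0.05 in edgeR's test was reached by 0 of the 4 genes and by 2448 of the 11640 tested.

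**Figure D2:**
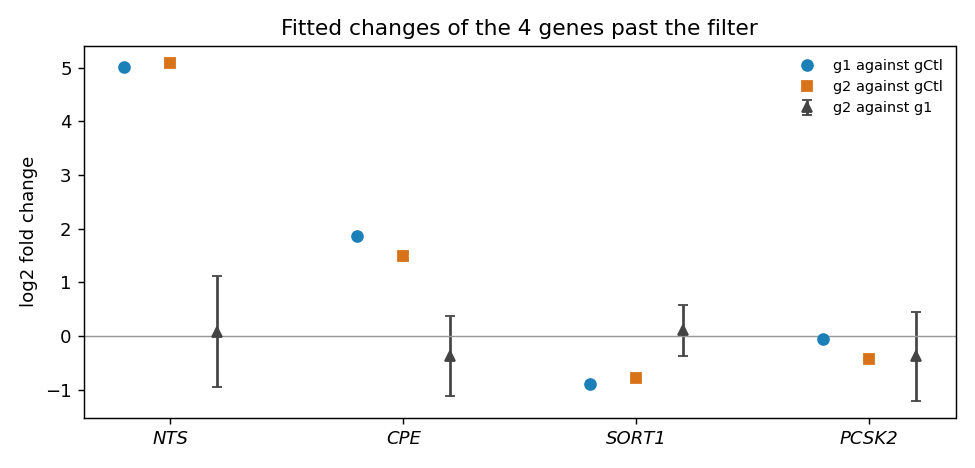
Log2 fold change (vertical axis) of the 4 genes past the filter for g1 against gCtl (circles), g2 against gCtl (squares) and g2 against g1 (triangles), with 95% intervals from the edgeR fit for g2 against g1 alone. These intervals include 0 for all 4 genes, and the fitted values of NTS against gCtl depend on the prior count because gCtl held at most 3 counts per library.

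QuantSeq reads start near the polyA tail, so the transcript class tells which 3′ ends were seen only where transcripts end apart. Where a noncoding transcript ends at or near the coding end, as for NTSR1 and SCG5-008, the class is an estimate. For NTS 52.1% of the 223 counts were assigned to coding transcripts and 47.9% to a retained-intron transcript, NTS-003. The 3 NTS transcripts end within 213 bases of one another, so that their split is an estimate. SORT1 had 82.2% on coding transcripts and 16.0% on a retained-intron transcript inside the gene (SORT1-004, chr1:109366783-109369589, minus strand). That share was 12.8% in gCtl, 20.2% in g1 and 21.0% in g2, without a test. CPE counts were 99.7% coding, of which most fell on CPE-001, the transcript that ends at the end of the gene. With coding transcripts alone the log2 fold change for the libraries labelled knockdown was 5.89 for NTS, -0.93 for SORT1 and 1.74 for CPE, and PCSK2 was not tested. The NTS value rests on 1.03 coding counts in gCtl, against 68.8 in g1 and 46.4 in g2, and so depends on the prior count.

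**Figure D3:**
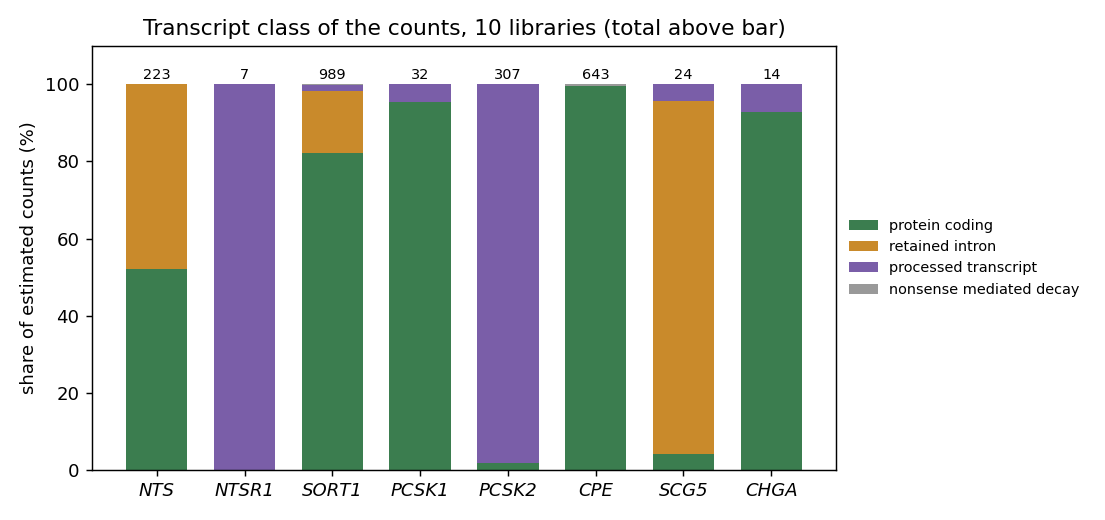
Share of each gene's estimated counts (vertical axis, percent, summed over the 10 libraries) by annotated transcript class, with the total count above each bar. Nearly all counts of CPE, PCSK1 and CHGA were on coding transcripts, while those of NTSR1, PCSK2 and SCG5 were mostly assigned to noncoding ones. For NTSR1 and part of SCG5 these end at or near the coding end, so the class is an estimate.

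The rest of the pathway was described with 7 lists of 138 other genes, of which 65 were tested. In the libraries labelled knockdown 7 of the 65 were called higher and 12 lower, where 8.14% and 11.0% of all tested genes were called, and the counts of the single lists stand against the same shares. Their median log2 fold change was -0.02, against 0.02 over all tested genes. For g1 the counts were 7 and 11 (background 6.81% and 9.91%), and for g2 they were 9 and 10 (background 10.7% and 13.0%). The lists were chosen with results known, so nothing particular to them is read from these counts. In the next paragraphs levels are CPM, which is RPM after TMM scaling, log2 fold changes compare the libraries labelled knockdown with gCtl, and adjusted p-values are from edgeR's quasi-likelihood test.

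Among 40 other gut and neural peptide precursors 6 were tested, of which 1 was called higher and 2 lower. EDN1, the endothelin-1 precursor, rose from 5.44 ± 1.40 CPM (SD, n = 5) to 35.8 ± 29.8 CPM (SD, n = 5), a log2 fold change of 2.73 (adjusted p = 0.000911). Its libraries labelled knockdown ranged from 10.3 to 86.6 CPM and all lay above gCtl. GAL, the galanin precursor, fell from 53.9 ± 19.9 to 16.2 ± 5.01 CPM (log2 fold change -1.73, adjusted p = 0.000628). NMB, the neuromedin B precursor, fell from 4.21 ± 0.456 to 0.816 ± 0.424 CPM (log2 fold change -2.39, adjusted p = 0.00104). The precursors changed in both directions. SCT, VIP, GAST and INSL5, which encode other gut hormones, had no count in any library. Other gut hormone genes had counts but did not pass the filter. In gCtl, g1 and g2, MLN had 2, 50 and 1 counts, with 0.215 to 4.93 RPM in the g1 libraries. CCK had 0, 9 and 1, GIP 3, 4 and 1, and GCG 1, 3 and 0. PYY and GHRL each had 5, 0 and 0. These differences were not tested.

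Downstream of the receptor, 17 of 22 genes of receptor signalling and the sortilin family were tested, with 3 called higher and 3 lower. The inositol trisphosphate receptors, which release calcium from the endoplasmic reticulum, moved apart. ITPR2 fell from 160 ± 31.5 to 72.8 ± 11.5 CPM (log2 fold change -1.14, adjusted p = 0.00027) and ITPR1 from 8.80 ± 4.67 to 3.69 ± 1.64 CPM (-1.29, adjusted p = 0.0203). ITPR3 rose from 19.0 ± 4.81 to 34.4 ± 6.47 CPM (0.86, adjusted p = 0.00484). PLCB4, a phospholipase C that acts below Gq, rose from 5.38 ± 2.09 to 15.8 ± 4.95 CPM (1.57, adjusted p = 0.00152). The second neurotensin receptor, NTSR2, had no count.

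Of 15 partners and cargo of sortilin 14 were tested, with 1 called higher and 3 lower. AP1M2, the epithelial medium chain of the AP-1 clathrin adaptor, fell from 27.5 ± 7.68 to 7.82 ± 2.20 CPM (log2 fold change -1.81, adjusted p = 0.000165). Its widely expressed counterpart AP1M1 rose from 75.7 ± 4.74 to 117 ± 14.7 CPM (0.62, adjusted p = 0.00291). The retromer subunit gene VPS26B fell (-1.05, adjusted p = 0.00285), as did GRN, whose product progranulin is a sortilin ligand (-0.99, adjusted p = 0.00562). VPS26A differed between the guides, at 39.0 ± 4.49 CPM in g1 and 67.3 ± 0.871 CPM in g2.

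Among 15 other processing enzymes 10 were tested, with 1 called higher and 3 lower. PCSK7, a convertase of the constitutive pathway, rose from 181 ± 16.6 to 439 ± 238 CPM (log2 fold change 1.28, adjusted p = 0.00387). FURIN, a convertase of the trans-Golgi network, fell from 3.56 ± 0.492 to 1.42 ± 0.760 CPM (-1.32, adjusted p = 0.0216). CPD, a carboxypeptidase with the same cleavage preference as CPE, fell from 104 ± 8.08 to 69.1 ± 19.3 CPM (-0.60, adjusted p = 0.0226). The direction in CPD was thus opposite to that in CPE. Of 5 peptidases that degrade neurotensin 3 were tested, and 0 were called by edgeR, DESeq2 or limma. An unadjusted p under 0.05 in edgeR's test was reached by 2 of them and by 4363 of the 11640 genes tested.

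Of 24 granins and granule exocytosis genes 9 were tested and 1 was called. CADPS, which primes dense core granules for release, rose from 1.17 ± 0.399 to 4.72 ± 0.970 CPM (log2 fold change 2.0, adjusted p = 0.00125). Of 17 enteroendocrine factors and markers 6 were tested, with 1 called lower, the transcription factor gene MNX1 (22.5 ± 4.46 to 13.9 ± 2.85 CPM, -0.70, adjusted p = 0.0201). DESeq2 and limma each called 2 of the 6. NEUROD1, a transcription factor gene of the lineage named here after its values were seen, had 5.31 ± 3.22 CPM (SD, n = 5) in gCtl, 1.15 ± 0.513 CPM (SD, n = 3) in g1 and 3.70 ± 0.0927 CPM (SD, n = 2) in g2. It was called lower in g1 (log2 fold change -2.20, adjusted p = 0.00953) but not in g2 (-0.50, adjusted p = 0.511) or in all libraries labelled knockdown (-1.27, adjusted p = 0.0748), and the difference between the guides was not called (1.70, adjusted p = 0.131). NEUROG3, the factor that starts the enteroendocrine lineage, and NKX2-2 had no count, and INSM1 had 1 count in all. PAX6, RFX3 and TPH1 of the same list were tested and not called (log2 fold change 0.06, -0.02 and 0.77). SCGN and ST18 had counts in every group but did not pass the filter. The summed level of the 17 genes was 45.3 to 72.2 RPM in gCtl, 32.9 to 44.0 RPM in g1 and 57.2 to 57.6 RPM in g2. The sum was carried mainly by MNX1 and by DDC, a decarboxylase gene, with means of 23.3 and 12.7 RPM in gCtl. Its part in the NTS values was not tested.

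**Figure D4:**
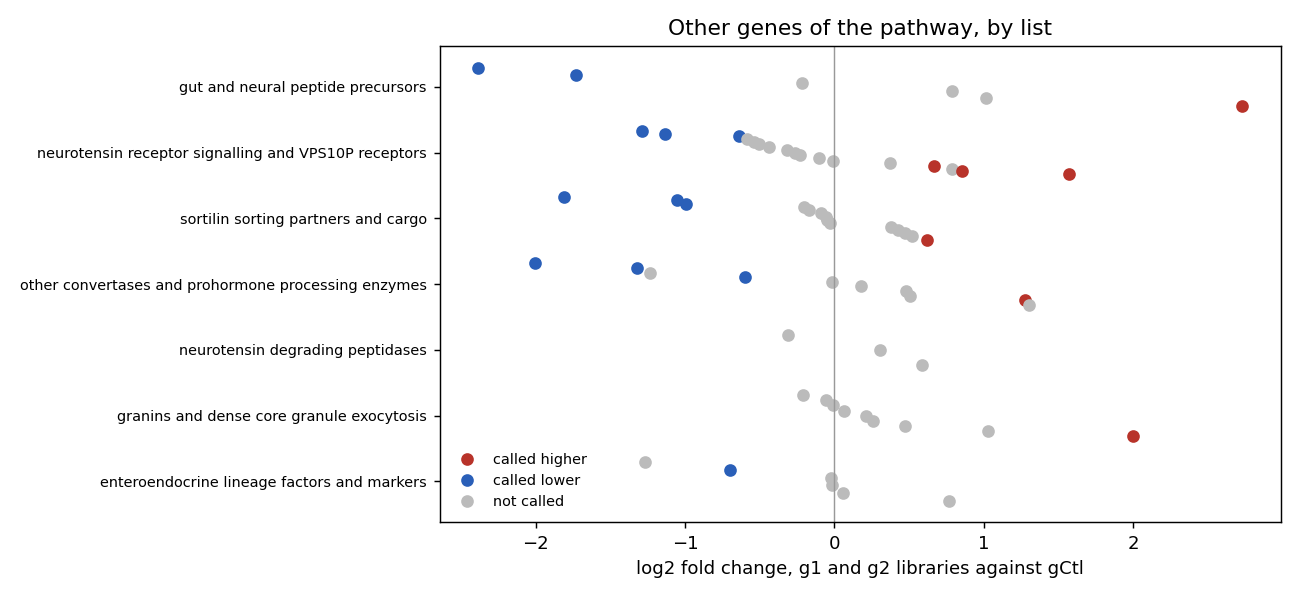
Log2 fold change of the libraries labelled knockdown against gCtl (horizontal axis) for the 65 tested genes of the 7 lists (rows), with genes called higher in red, called lower in blue and not called in grey. Calls went both ways in the first 4 lists, and 7 genes were called higher and 12 lower in all.

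The genes whose pattern was most like that of NTS were found by Pearson's r of log2(CPM + 1) over the 10 libraries, which share the grouping and so the difference between groups. They were FAM171A1 (r = 0.974), MIB2 (0.971), MTTP (0.971), SPEF2 (0.965) and GSTA1 (0.960). MTTP, the lipid transfer protein needed to assemble chylomicrons, had a mean of 19.1 CPM in gCtl, 69.5 CPM in g1 and 80.3 CPM in g2. For SORT1 the most alike were CD320, PRSS23 and SLC44A2 (r = 0.965 to 0.969), for CPE they were CYTH1, NR5A2 and TCEB2 (0.947 to 0.952), and for PCSK2 they were C9orf3, CLN6 and CTNS (0.889 to 0.915).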

How the data were processed

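RNA from 10 Caco-2 libraries was sequenced by the QuantSeq 3′ method. The authors deposited, for each library, Kallisto estimated counts of 199169 GENCODE v24 transcripts, not normalized and not pooled (Kallisto 42.5 per the submitters' processing notes). Here the deposited estimated counts were added up over the transcripts of each gene, and the sums were rounded before testing. RPM is per 1000000 estimated counts of the library. Genes past the filter were tested by the quasi-likelihood F test of edgeR 4.0.16 (R 4.3.3) after TMM scaling, with Benjamini-Hochberg adjustment, as gCtl against all libraries with a guide and in a fit with 3 groups. SE is the absolute log2 fold change over the square root of F.

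Library sizes were first taken over the tested genes alone. They were changed to whole-library totals after results had been seen, because earlier work on these data defined CPM that way and its count of called genes was known. The first version is kept as an alternative. The 8 genes and the lists were chosen with earlier results of these data known. The motifs were chosen with the sequences seen.

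Genes named from the lists are at most 4 called genes per list with the largest change, and those called between the guides. Of these, 1 gene is not reported here. Other list genes, and cell type markers, were named after their values were seen. Alternatives were DESeq2 1.42.0, limma 3.58.1 on log2(RPM + 1), other scalings and filters, coding transcripts alone, and each library left out. Of 200 genes changed 3-fold among 11640 on simulated data, edgeR recovered 100% in the comparison of knockdown with gCtl (14 false calls) and 93% in that of g2 with g1 (6 false calls). The simulation gave every gene the same dispersion and changed only genes above a level cut, evenly in both directions. These rates therefore need not hold for the real libraries or for genes of low level. All 44 transcripts of the 8 genes were placed with GENCODE v29 by ID, and promoters are RefSeq's (GRCh38.p14).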

Additional observations from a re-analysis of the deposited data

Results flagged for a closer look

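SCG5 was at 1.41 RPM in gCtl replicate 5, far from the next gCtl library at 0.260 RPM. CHGA was at 1.14 RPM in g2 replicate 1, far from the next library with a guide at 0.215 RPM. Both rest on at most 8 counts. The cutoff is meant to flag about 5% of groups by chance when values are normally distributed. Its rate for counts this low was not computed for the 18 groups examined. Among the 65 tested list genes 3 differed between g2 and g1 by edgeR's quasi-likelihood test, which is 4.62%, near the background of 1.55% called higher and 3.42% lower. The count was 1 without g1 replicate 1, g1 replicate 2 or g2 replicate 2. SYT7, a calcium sensor of granule release, had a log2 fold change of 1.54 (adjusted p = 0.0103), with 9.39 ± 1.75 CPM (SD, n = 3) in g1 and 27.6 ± 0.557 CPM (SD, n = 2) in g2. VPS26A had 0.79 (adjusted p = 0.0301) and RAB3B, a granule GTPase gene, -0.83 (adjusted p = 0.0299).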

How the results depend on the processing

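NTS, CPE and SORT1 kept their direction against gCtl under all 18 alternatives, of which 10 left out a library. The count of the 4 genes called stayed at 3 for knockdown and g1 in all of them and ranged from 1 to 3 for g2, with the 1 when g2 replicate 2 was left out. CPE (1.11) and SORT1 (-0.73) were then not called. The genes were selected on the contrast with gCtl, so nothing is read from these directions and counts. With a library left out, list genes called ranged from 16 to 21 for knockdown, 14 to 20 for g1, 9 to 20 for g2 and 1 to 4 for g2 against g1 (1 without g1 replicate 1, g1 replicate 2 or g2 replicate 2), and DESeq2 called 5 in the last. Values near 0 changed sign. PCSK2 in g1 ranged from -0.240 to 0.0734 with a library left out, the highest without gCtl replicate 4. For g2 against g1, NTS was -0.0441 and SORT1 -0.0124 with library totals, SORT1 was -0.0036 with limma, and NTS ranged from -0.198 to 0.554 with a library left out, below 0 without g1 replicate 1, g1 replicate 3 or g2 replicate 1. Limma gave 2.73 for NTS in knockdown, on the log2(RPM + 1) scale. Library sizes over the tested genes alone, the version first used and set aside after results were seen, gave the same counts of the 4 genes called, 19, 19 and 18 list genes against gCtl and 3 between the guides. Over all genes, g2 against gCtl called 2756, and 1501 without g2 replicate 2. The count for g1 was 1947, and 1249 without g1 replicate 3. For g2 against g1 it was 579, with 360 on coding transcripts alone, 267 without g1 replicate 1 and 314 without g1 replicate 2. With library totals the median of g2 against gCtl moved from 0.00 to -0.16. LHFPL3-AS2 ranged from 0.29 to 0.87. No paired analysis was possible because the labels carry no replicate numbers, and those used here only follow sample order. Depth limited NTSR1, PCSK1, SCG5 and CHGA, which had at most 8 counts per library.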
